A study of Mus musculus with 9 samples.

Results

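The genes for 9 proteins that set how long cytokine mRNAs last were followed in mouse bone marrow-derived mast cells (BMMCs). They are tristetraprolin (Zfp36) and its relatives Zfp36l1 and Zfp36l2, the Regnase endonucleases Zc3h12a and Zc3h12c, the Roquins Rc3h1 and Rc3h2, HuR (Elavl1) and KSRP (Khsrp). These 9 genes were picked by symbol from the 47643 rows of a table of raw counts per Ensembl gene, and each symbol matched 1 row. BMMCs are mast cells grown from C57BL/6 bone marrow in medium conditioned by WEHI-3 cells, a source of IL-3. There were 3 groups of 3 libraries each. The Control group is named as such by its labels, although the general treatment text of the labels, luteolin included, stands on all 9 samples. The IgE+BSA group was sensitised with IgE against the hapten DNP and then given DNP-BSA, the antigen that crosslinks this IgE on the cell surface. The IgE+BSA+Luteolin group received both and the flavone luteolin at 10 uM. The labels give a luteolin treatment of 24 h, and the study's descriptions place luteolin before the antigen in one place and after it in another, so the order is not settled. The labels name no animals, pools or cultures behind a replicate, so the p-values below measure the spread between these libraries, which may be technical.

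Many cytokine mRNAs carry AU-rich elements in their 3′ untranslated region (UTR). Tristetraprolin and its relatives bind these elements and bring in the CCR4-NOT deadenylase, which shortens the poly(A) tail, while HuR binds the same kind of element and protects the mRNA. KSRP is another AU-rich element binder that promotes decay. Regnase-1, the product of Zc3h12a, cuts stem-loops in the 3′ UTR of cytokine mRNAs, and the Roquins bind a related stem-loop and recruit deadenylases. Mast cells make TNF, IL-6 and IL-13 within hours of IgE crosslinking, and the transcripts of these cytokines are short-lived.

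On GRCm38 the protein-coding genes lie as follows. The tristetraprolin family has Zfp36 (ENSMUSG00000044786) at chr7:28376784-28380253 on the minus strand, Zfp36l1 (ENSMUSG00000021127) at chr12:80107754-80113013 on the minus strand and Zfp36l2 (ENSMUSG00000045817) at chr17:84183931-84187947 on the minus strand. The Regnase genes are Zc3h12a (ENSMUSG00000042677) at chr4:125118423-125127840 on the minus strand and Zc3h12c (ENSMUSG00000035164) at chr9:52111344-52168572 on the minus strand, and the Roquin genes Rc3h1 (ENSMUSG00000040423) at chr1:160906418-160974978 on the plus strand and Rc3h2 (ENSMUSG00000075376) at chr2:37370069-37422903 on the minus strand. HuR is encoded by Elavl1 (ENSMUSG00000040028) at chr8:4285382-4325413 on the minus strand and KSRP by Khsrp (ENSMUSG00000007670) at chr17:57021051-57031522 on the minus strand.

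The nonamer TTATTTATT is the classical tristetraprolin site, and several of the decay factors carry it in their own 3′ UTR. In 1 transcript per gene of the GENCODE M21 annotation (GRCm38), Zfp36, Zfp36l1, Zfp36l2, Rc3h1 and Rc3h2 held 1 match each and Elavl1 held 8, which partly overlap. Zc3h12a, Zc3h12c and Khsrp held 0. Tnf, the best known tristetraprolin target, held 5 overlapping matches. The 3 tristetraprolin family sites, the Rc3h1 site and the first Tnf site are given on the transcribed strand with the nonamer in capitals, since they show the element that the family binds in the messages of the family itself.
Zfp36, chr7:28376951-28376979, minus strand: tatgacgactTTATTTATTgtattaagat
Zfp36l1, chr12:80108167-80108195, minus strand: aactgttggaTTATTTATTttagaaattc
Zfp36l2, chr17:84184914-84184942, minus strand: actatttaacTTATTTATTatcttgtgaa
Rc3h1, chr1:160970043-160970071, plus strand: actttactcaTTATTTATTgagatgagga
Tnf, chr17:35199689-35199717, minus strand: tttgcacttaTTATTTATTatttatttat
In the transcripts used, the Zfp36 nonamer began at base 589 of a 3′ UTR of 774 bases, and the Zfp36l1 nonamer at base 1404 of 1835.

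The promoters of Zfp36, Zfp36l1 and Zc3h12c are shown because these genes moved together between the groups and each holds a searched motif. RefSeq windows on GRCm38.p6, from 250 bases before to 50 bases after the start site, were at hand for 8 of the 9 genes. They were searched on both strands for sites of NF-kB, for the CArG box bound by serum response factor, for AP-1 (TGANTCA), for the cAMP response element (TGACGTCA) and for EGR (GCGNGGGCG). Capitals mark the matches, and none of them overlapped another.
Zfp36, chr7:28379179-28379478, minus strand: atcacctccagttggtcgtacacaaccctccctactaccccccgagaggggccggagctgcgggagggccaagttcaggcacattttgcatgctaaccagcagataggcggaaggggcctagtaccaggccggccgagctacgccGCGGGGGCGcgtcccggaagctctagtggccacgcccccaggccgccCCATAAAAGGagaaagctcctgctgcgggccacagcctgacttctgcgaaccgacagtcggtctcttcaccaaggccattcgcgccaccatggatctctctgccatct
Zfp36l1, chr12:80112964-80113263, minus strand: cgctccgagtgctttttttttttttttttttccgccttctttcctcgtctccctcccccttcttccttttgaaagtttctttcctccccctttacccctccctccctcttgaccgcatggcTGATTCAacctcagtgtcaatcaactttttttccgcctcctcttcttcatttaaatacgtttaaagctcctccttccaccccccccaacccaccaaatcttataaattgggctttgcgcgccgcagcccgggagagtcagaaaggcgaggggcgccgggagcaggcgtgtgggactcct
Zc3h12c, chr9:52168357-52168656, minus strand: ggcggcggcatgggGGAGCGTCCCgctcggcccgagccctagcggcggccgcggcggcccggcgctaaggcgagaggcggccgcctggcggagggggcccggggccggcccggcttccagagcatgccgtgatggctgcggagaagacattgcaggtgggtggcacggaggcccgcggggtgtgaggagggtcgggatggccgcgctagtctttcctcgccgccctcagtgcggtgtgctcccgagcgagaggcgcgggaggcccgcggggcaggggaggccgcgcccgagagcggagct
The Zfp36 window held a CArG box starting at base -58 from the start site and an EGR match at -105. The Zfp36l1 window held an AP-1 match at -129, and the first of 2 windows of Zc3h12c an NF-kB match at -236. Rc3h1 held an AP-1 match at -133, and the windows of Zc3h12a, Rc3h2, Elavl1 and Khsrp held none. Over all 32851 windows, 8.46% held an NF-kB match, 7.81% an AP-1 match, 1.79% a cAMP response element, 1.63% a CArG box and 5.55% an EGR match. A match describes the letters of these windows only.

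The libraries held 9515004 to 24605689 counts, and 3 counts in a library corresponded to 0.122 to 0.315 CPM (counts scaled to a common library size). All 9 decay factors passed the filter of a median above 1 CPM that left 11560 genes for testing, and the lowest count of any of them was 147. All 10 mast cell markers had a mean above 1 CPM in each group. Among them, the receptors Kit and Fcer1a were at 1750 to 2480 and 4370 to 6880 CPM over the 9 libraries. This threshold does not tell cell types apart, since all 6 neutrophil and 2 basophil markers also passed it in each group. Among macrophage and monocyte markers, Adgre1 was at 202 to 259 CPM, Lyz2 at 89.5 to 113, Cd68 at 30.2 to 50.9, Ly6c2 at 20.3 to 30.9 and Csf1r at 4.62 to 10.3 over the 9 libraries, and C1qa and C1qb were at or near 0. The Control libraries did not form 1 group. Control replicate 1 was closer to the mean of the luteolin libraries, at a distance of 133.2, than to the mean of the other Control libraries, at 203.7 (distance over scaled log2 CPM of all genes tested). The summed level of 6 neutrophil markers was 196 CPM in Control replicate 1, 6.97 in replicate 2 and 5.69 in replicate 3, against 130.0 to 142 in the IgE+BSA and 152 to 179 in the IgE+BSA+Luteolin libraries. The summed level of 10 mast cell markers was 83800 CPM in Control replicate 1 and 55000 to 55300 in the other Control libraries, against 58900 to 65700 and 70400 to 81600 CPM in the antigen and luteolin groups. Within Control, Fcer1a, Cpa3, Tpsb2, Cma1, Mcpt4 and Hdc were highest in replicate 1. Kit, Ms4a2, Tpsab1 and Gata2 were lowest there, so the markers did not all follow the sum. Replicate 1 was thus apart from its group in transcriptome distance, while replicates 2 and 3 were apart from the other 7 libraries in neutrophil markers. The basophil marker Mcpt8 split the same way, at 21.8 and 18.7 CPM in Control replicates 2 and 3 and at 292 to 432 CPM in the other 7 libraries, while Prss34, another basophil marker, was at 513 to 759 CPM in all 9. The mast cell proteases Mcpt4 (201 and 197 against 1030 to 1750 CPM) and Cma1 (4050 and 3550 against 6390 to 10100) also split so. The eosinophil marker Prg2 did too (0.0969 and 0.0 against 13.6 to 31.5 CPM), while Siglecf, another eosinophil marker, did not. Each test of the 9 factors against Control was therefore run with all 3 Control libraries, without replicate 1, and against replicate 1 alone. In bulk RNA, fewer cells of a type and less RNA per cell cannot be told apart, and the part of these markers in the results was not tested.

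Zfp36 mRNA stood highest in the antigen-stimulated libraries and lowest in the luteolin libraries. Its normalised level was 28.5, 14.2 and 17.9 CPM in Control replicates 1 to 3. It was 71.6, 75.0 and 82.4 CPM in the IgE+BSA libraries and 10.2, 8.66 and 11.7 CPM in the IgE+BSA+Luteolin libraries. The 3 groups did not overlap, and every luteolin library lay below every Control library. Zfp36l1, a paralog with the same zinc fingers and decay activity, showed the same order of group means. It measured 29.1, 34.1 and 48.6 CPM in Control, 121.9, 124.4 and 146.4 CPM in IgE+BSA, and 27.2, 25.7 and 30.0 CPM in IgE+BSA+Luteolin. The antigen libraries were apart from all others, while the luteolin libraries overlapped the Control range. Zfp36l2, the third paralog, reached 304.2, 319.6 and 321.9 CPM with antigen and 172.1, 149.4 and 162.5 CPM with luteolin added. Its Control values split, with 158.5 CPM in replicate 1, inside the luteolin range, and 272.9 and 281.2 CPM in replicates 2 and 3.

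Of the Regnase genes, Zc3h12a was tight within each group and stepped between them. Its level was 74.0, 80.5 and 77.8 CPM in Control, 125.0, 129.7 and 132.0 CPM in IgE+BSA, and 35.6, 33.2 and 42.4 CPM in IgE+BSA+Luteolin. No libraries of different groups overlapped, and Control replicate 1 lay with its group. Zc3h12c encodes Regnase-3, which cuts mRNA with the same kind of nuclease domain. It stood at 101.9, 70.1 and 116.4 CPM with antigen, and at 11.7, 9.84 and 14.8 CPM with luteolin added. In Control it was 12.0 CPM in replicate 1, within the luteolin range, and 42.2 and 36.6 CPM in replicates 2 and 3.

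The Roquin genes varied less between the treated groups than within Control. Rc3h1, which encodes Roquin-1, measured 63.3, 60.1 and 64.9 CPM in IgE+BSA and 38.8, 43.1 and 46.5 CPM in IgE+BSA+Luteolin, with no overlap. Its Control libraries ranged from 23.0 CPM in replicate 1 to 69.1 CPM in replicate 2, with 60.1 CPM in replicate 3. Rc3h2, which encodes Roquin-2, lay between 33.3 and 40.6 CPM with antigen and between 31.9 and 39.9 CPM with luteolin, which overlap, and its Control values were 24.3, 43.2 and 43.5 CPM. Rc3h1 and Rc3h2 were thus both lowest in Control replicate 1 of all 9 libraries. The remaining pair, HuR and KSRP, was the steadiest. Elavl1 ran from 83.7 to 92.3 CPM in Control, 96.0 to 102.6 CPM in IgE+BSA and 104.0 to 110.1 CPM in IgE+BSA+Luteolin. Its 3 groups lay in that order without overlap. Khsrp spanned 163.0 to 193.7, 187.7 to 198.7 and 192.9 to 207.4 CPM in the same groups, and neighbouring groups overlapped.

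**Figure D1:**
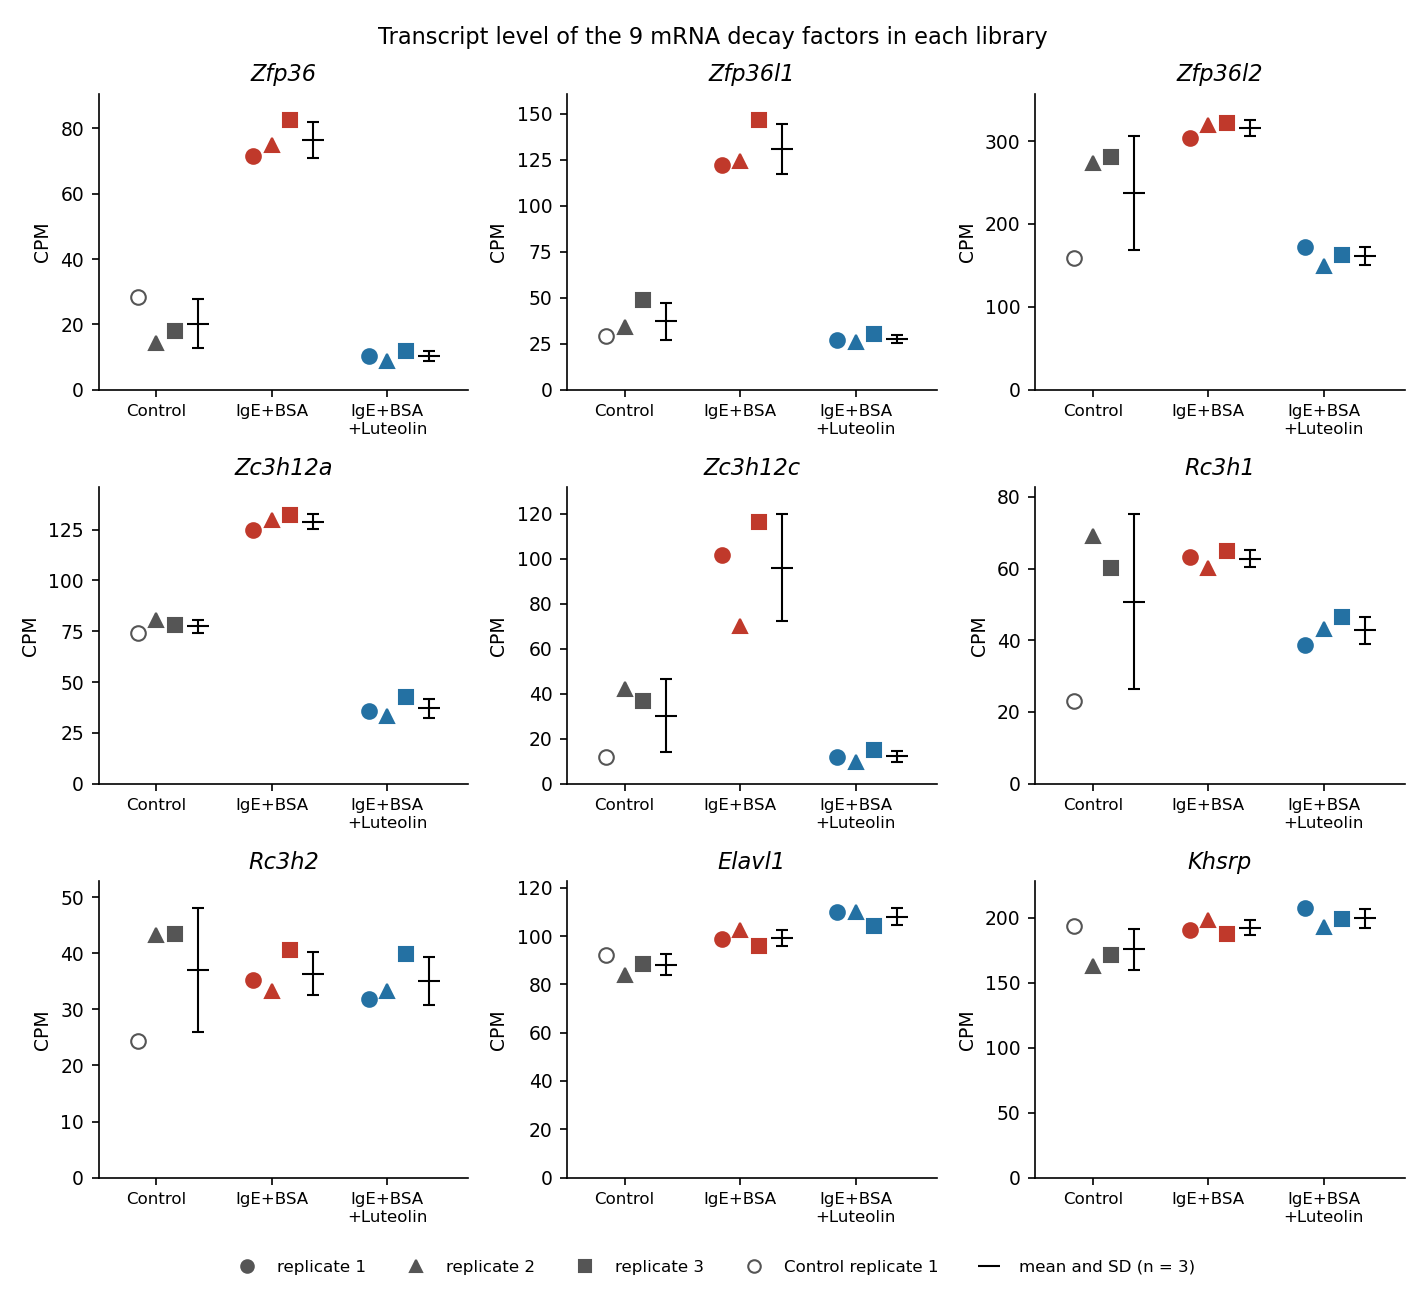
Normalised level (CPM, linear axis from 0) of each decay factor in the 9 libraries, with 1 marker shape per replicate, Control replicate 1 as an open circle, and the mean and SD of each group of 3 beside it. Zfp36, Zfp36l1, Zc3h12a and Zc3h12c stand highest in the 3 IgE+BSA libraries, and Zc3h12c, Rc3h1 and Rc3h2 are low in Control replicate 1.

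The luteolin comparison asks what luteolin changed in antigen-stimulated cells. Of the 9 decay factors, 6 were lower with luteolin, where 21.9% of the 11560 genes tested were lower. The median log2 fold change of the 9 was -0.96, against 0.02 over all genes tested. Zc3h12c fell by 2.99 on the log2 scale (SE 0.16), which is 7.97-fold, and Zfp36 fell by 2.91 (SE 0.10), which is 7.5-fold. They ranked 45 and 53 among the 11560 genes from the largest decrease. Zfp36l1 was 4.73-fold lower (log2 fold change -2.24, SE 0.082), Zc3h12a 3.47-fold lower (-1.80, SE 0.078) and Zfp36l2 1.95-fold lower (-0.96, SE 0.061). By edgeR's quasi-likelihood test with Benjamini-Hochberg adjustment over all genes tested, the adjusted p of these 5 genes ran from 3.19e-13 for Zfp36 to 1.11e-09 for Zfp36l2. Rc3h1 fell by 0.55 (SE 0.075, 1.46-fold, edgeR adjusted p = 2.24e-05). The factors of the tristetraprolin and Regnase families were therefore lower in every luteolin library than in any antigen library.

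Rc3h2, Elavl1 and Khsrp did not pass the threshold of 0.05 in this comparison. The log2 fold change of Rc3h2 was -0.05 (95% interval -0.26 to 0.15, edgeR adjusted p = 0.693), that of Elavl1 was 0.13 (0.01 to 0.25, adjusted p = 0.0868) and that of Khsrp was 0.06 (-0.06 to 0.17, adjusted p = 0.432). The HuR message thus differed by at most 0.25 on the log2 scale within this interval, in the libraries in which the messages of the tristetraprolin family fell. Elavl1 passed as higher with upper-quartile factors (0.20, edgeR adjusted p = 0.00882) and without luteolin replicate 3 (0.15, adjusted p = 0.0466). With scaling by library size alone, which moved the median of all genes to 0.13, Elavl1 (0.24, edgeR adjusted p = 0.00225) and Khsrp (0.17, adjusted p = 0.0157) passed as higher, where 33.4% of all genes did, and Rc3h2 was at 0.06. The summed mast cell markers were also higher with luteolin, at 70400 to 81600 against 58900 to 65700 CPM, a sum carried mostly by Cpa3 and Tpsb2, while the means of Tpsab1 (546 to 219 CPM), Hdc (845 to 378), Kit (2150 to 2000) and Gata2 (1390 to 1330) were lower. The neutrophil markers were at 152 to 179 against 130.0 to 142 CPM. Their part in these results was not tested. Rc3h1 did not pass in a fit over all 9 libraries, where its fold change was the same (-0.55, edgeR adjusted p = 0.309).

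Gene length bears on the longest of these messages. In the luteolin comparison, longer genes had lower fold changes across the whole table, with medians on the log2 scale from 0.18 for summed exons under 2 kb to 0.10 at 2 to 4 kb, -0.01 at 4 to 8 kb and -0.18 over 8 kb. Rc3h1, Rc3h2 and Elavl1 have exons summing to 11308, 19624 and 10363 bases, and the tristetraprolin genes and Zc3h12a to 2882 to 3530 bases. With this trend removed from every library, Rc3h2 (0.24, edgeR adjusted p = 0.0176) and Elavl1 (0.29, adjusted p = 0.0016) passed as higher and Rc3h1 stayed lower (-0.37, adjusted p = 0.000189). Zfp36 was then at -2.98, Zfp36l1 at -2.34, Zfp36l2 at -1.03, Zc3h12a at -1.90 and Zc3h12c at -2.93, each called as lower. So 6 factors were lower and 2 higher, where 20.1% of all genes were lower and 15.2% higher. The 5 large decreases thus moved by at most 0.10 with length, while the small values of the long messages depended on it.

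**Figure D2:**
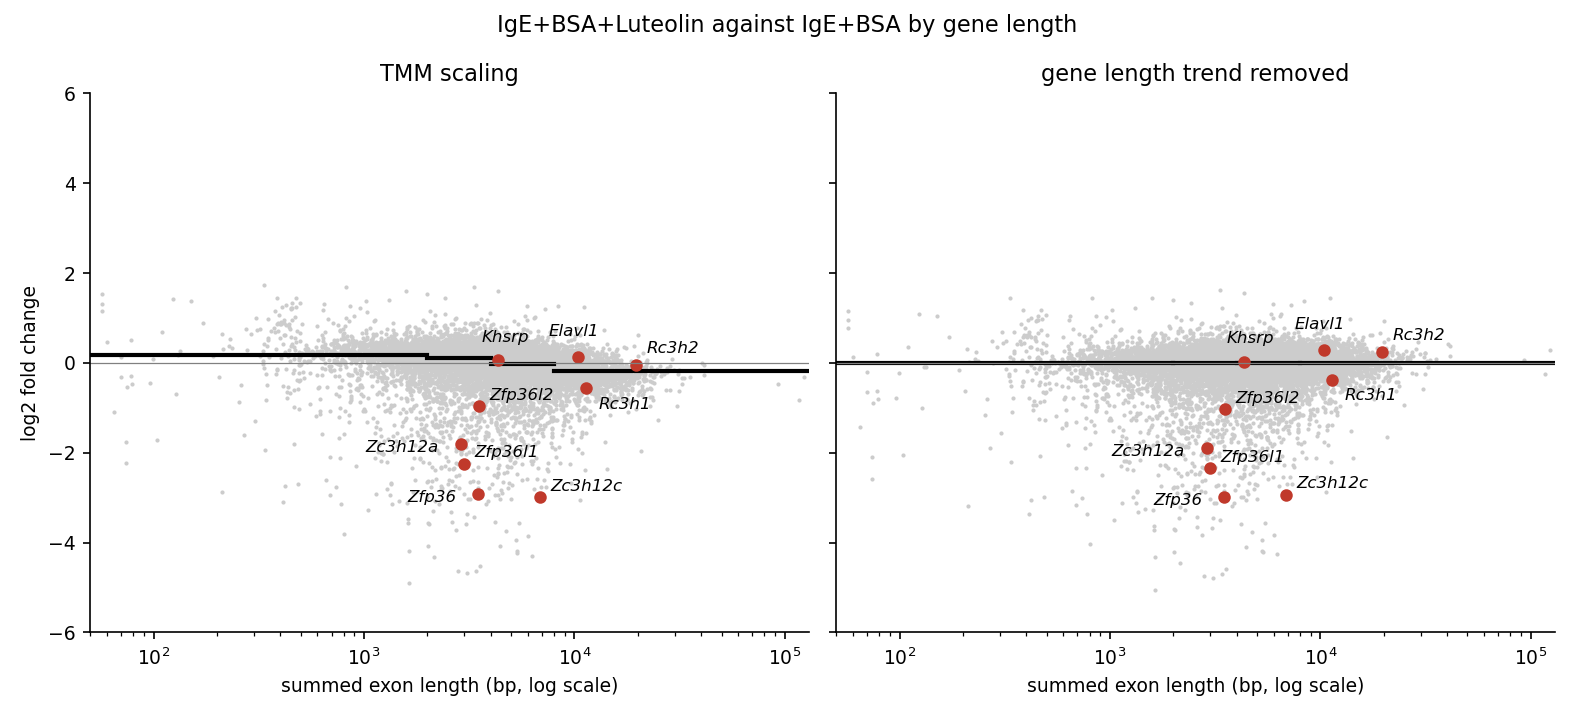
Log2 fold change of IgE+BSA+Luteolin against IgE+BSA for each gene tested (grey points) by summed exon length on a log axis, with the 9 decay factors in red and black bars at the median of genes under 2, 2 to 4, 4 to 8 and over 8 kb. The left panel uses TMM scaling, where the bars step down from 0.18 to -0.18, and the right panel has the length trend removed, where each bar is at 0.01.

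The antigen comparison sets cells given IgE and antigen against Control. No group was given IgE alone, so effects of sensitisation and of crosslinking cannot be told apart here. The words "with antigen" stand for IgE and antigen together. Zfp36, Zfp36l1 and Zc3h12a were higher in IgE+BSA than in Control, so 3 of the 9 factors rose, where 2.25% of all genes tested rose. The median log2 fold change of the 9 was 0.41, against 0.02 over all genes tested. Zfp36 rose by 1.90 on the log2 scale (SE 0.25, edgeR adjusted p = 0.0102), Zfp36l1 by 1.81 (SE 0.20, adjusted p = 0.00455) and Zc3h12a by 0.73 (SE 0.094, adjusted p = 0.00867). Zc3h12c had a similar difference of 1.68 but a wider error (SE 0.43, edgeR adjusted p = 0.0899), its Control libraries being 3.51-fold apart. It passed with DESeq2 (adjusted p = 0.00268), with no filter (0.000534) and in an edgeR fit over all 9 libraries (0.0275). Zfp36l2 (0.41, edgeR adjusted p = 0.316), Elavl1 (0.17, adjusted p = 0.406) and Khsrp (0.13, adjusted p = 0.581) did not pass, nor did Rc3h1 (0.32, adjusted p = 0.667) and Rc3h2 (-0.02, adjusted p = 0.973). The levels of Zfp36l2, Zc3h12c and Elavl1 did not overlap between the groups all the same.

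These calls depended on the Control libraries used. Without Control replicate 1, 4 factors rose and 1 fell, where 22.6% of all genes rose and 22.4% fell. Zfp36 (2.17), Zfp36l1 (1.58), Zc3h12a (0.66) and Zc3h12c (1.25, edgeR adjusted p = 3.48e-05) were higher, and Rc3h2 was lower (-0.30, adjusted p = 0.0199). Against Control replicate 1 alone, a choice made after seeing the data in which the lone library is assumed to vary like the others, 7 factors rose, where 23.1% of all genes rose. Zfp36 (1.40), Zfp36l1 (2.15), Zc3h12a (0.78) and Zc3h12c (2.98) were again higher, and so were Zfp36l2 (0.97), Rc3h1 (1.43) and Rc3h2 (0.56, edgeR adjusted p = 0.00497). The rise of Zfp36, Zfp36l1, Zc3h12a and Zc3h12c was thus measured against either kind of Control library, whereas Rc3h2 took opposite signs. With any 1 IgE+BSA library left out, Zfp36 and Zc3h12a no longer passed, with edgeR adjusted p values of 0.0595, 0.0592 and 0.0705 for Zfp36 and of 0.0792, 0.0726 and 0.0855 for Zc3h12a without replicates 1, 2 and 3. Their fold changes stayed between 1.85 and 1.95 and between 0.72 and 0.76. Without Control replicate 3, Zfp36 was at 1.81 (edgeR adjusted p = 0.0583). With replicate number as a block, Zc3h12a did not pass (0.73, edgeR adjusted p = 0.0626).

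Luteolin-treated cells against Control gave 1 call. Zc3h12a was lower than in Control cells (log2 fold change -1.07, SE 0.13, edgeR adjusted p = 0.0115), where 2.75% of all genes tested were lower. Zfp36 was at -1.0 (SE 0.26, edgeR adjusted p = 0.0921), although its 3 luteolin libraries lay below the 3 Control libraries, and Zc3h12c was at -1.32 (SE 0.44, adjusted p = 0.144). The other 6 factors had adjusted p values of 0.145 for Elavl1 to 0.845 for Rc3h2 by the same edgeR test. Zc3h12a was at -1.10 without Control replicate 1 and at -1.0 against replicate 1 alone, and called in both. Its call was lost without Control replicate 2 (edgeR adjusted p = 0.0566) or 3 (0.0511), and without luteolin replicate 1 (0.11) or 2 (0.0976), while its fold change stayed between -1.17 and -0.99 with any 1 library left out. Without Control replicate 1, all 9 factors passed, 7 as lower and Elavl1 (0.31) and Khsrp (0.25) as higher, where 30.1% of genes were lower and 29.9% higher. Against replicate 1 alone, Zfp36 was lower (-1.49, edgeR adjusted p = 1.08e-05) while Rc3h1 (0.89) and Rc3h2 (0.53) were higher, where 9.55% of genes were lower and 11.6% higher. Zfp36 and Zc3h12a were thus below either kind of Control library, and Elavl1 was above both kinds without overlap, although of these 3 choices it passed the test only without replicate 1. The fold changes of Zfp36l2, Zc3h12c, Rc3h1 and Rc3h2 changed sign with the Control library used. The antigen and luteolin comparisons share their IgE+BSA libraries and the Control comparisons their Control libraries, so their values are not independent of each other.

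**Figure D3:**
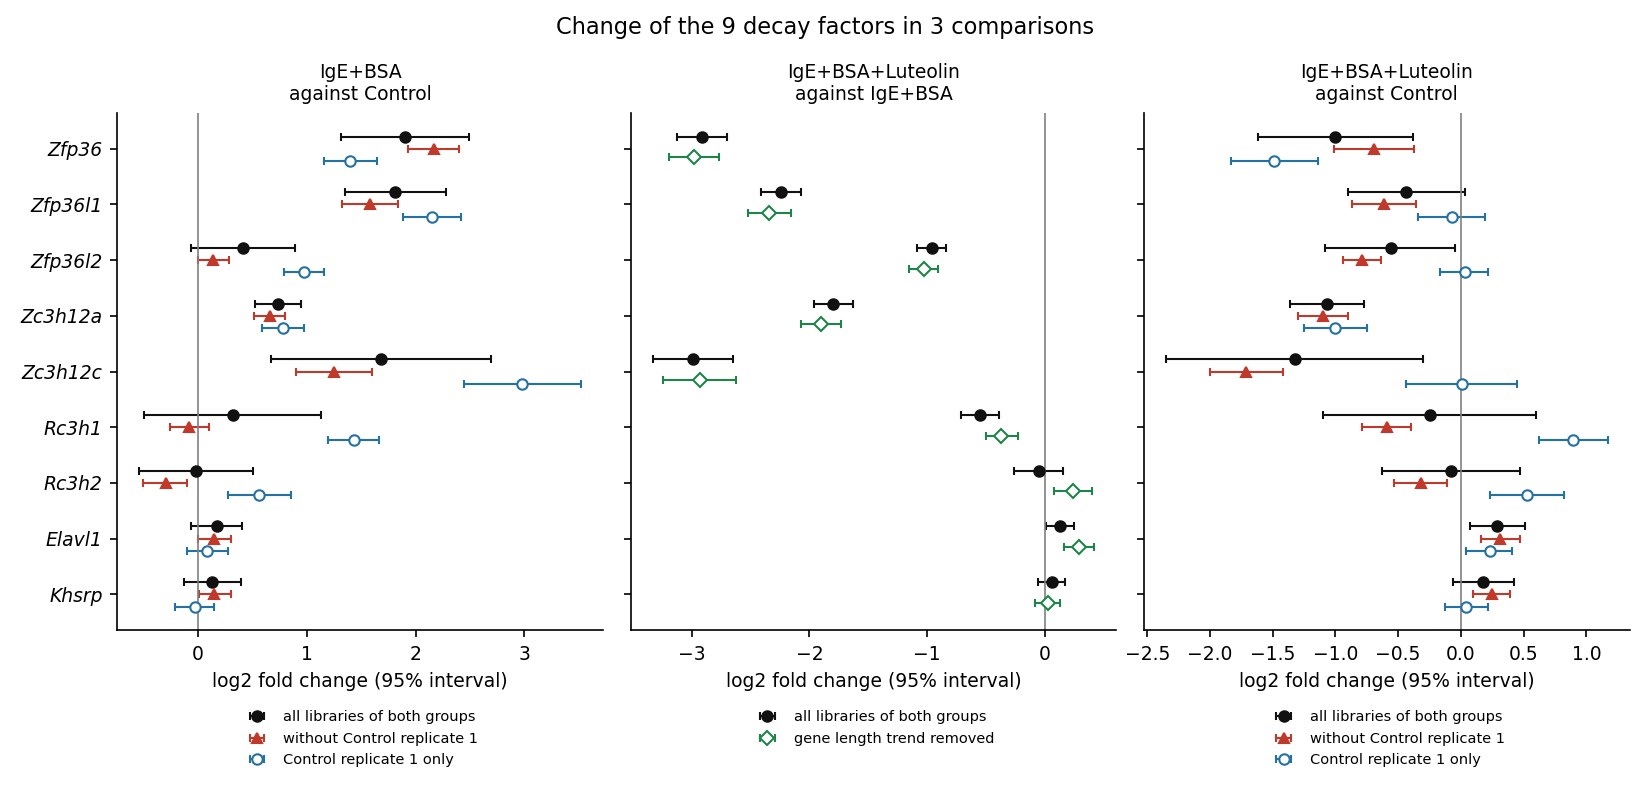
Log2 fold change with its 95% interval of the 9 decay factors in 3 comparisons, from all libraries (black), without Control replicate 1 (red), against Control replicate 1 alone (blue) and with the gene length trend removed (green, middle panel). Zfp36, Zfp36l1, Zc3h12a and Zc3h12c lie right of 0 on the left and left of 0 in the middle, and Rc3h1 and Rc3h2 change side with the Control library.

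Levels of different genes were compared per kilobase of exon, since longer mRNAs give more counts. In IgE+BSA, Zfp36l2 was the most abundant factor at 89.3 ± 2.72 CPM per kb (SD, n = 3). Zc3h12a (44.7 ± 1.24), Khsrp (44.6 ± 1.32) and Zfp36l1 (43.8 ± 4.51) followed with overlapping libraries. Below them were Zfp36 (22.0 ± 1.60), Zc3h12c (14.1 ± 3.46), Elavl1 (9.56 ± 0.324), Rc3h1 (5.55 ± 0.217) and Rc3h2 (1.85 ± 0.193), each apart from the next. In IgE+BSA+Luteolin, Khsrp (46.3 ± 1.69 CPM per kb) and Zfp36l2 (45.7 ± 3.23) overlapped at the top, and Zc3h12a followed at 12.9 ± 1.66. Elavl1 (10.4 ± 0.338) then overlapped Zfp36l1 (9.25 ± 0.726). Rc3h1 (3.78 ± 0.340) came next and Zfp36 (2.94 ± 0.438) after it, both apart from their neighbours, and Rc3h2 (1.79 ± 0.216) and Zc3h12c (1.77 ± 0.370) overlapped at the bottom. In Control the order was Zfp36l2 (67.3 ± 19.4 CPM per kb), Khsrp (40.7 ± 3.69), Zc3h12a (26.9 ± 1.13) and Zfp36l1 (12.5 ± 3.39), each apart from the next, although Zfp36l2 and Khsrp only just (lowest 44.89 against highest 44.86), above Elavl1 (8.51 ± 0.417), Zfp36 (5.83 ± 2.14), Rc3h1 (4.48 ± 2.16), Zc3h12c (4.43 ± 2.35) and Rc3h2 (1.89 ± 0.561), each of which overlapped the next. On this scale Zfp36 and Zc3h12c lay above Elavl1 in the antigen group and below it in the luteolin group. On the length of a single coding transcript, Elavl1 (17.3 ± 0.584 CPM per kb) had the higher mean and overlapped Zc3h12c (14.2 ± 3.50) in IgE+BSA, lay above Zc3h12a in IgE+BSA+Luteolin and overlapped Zfp36l1 in Control, where Zfp36l2 and Khsrp overlapped too. On that scale Rc3h2 was at 3.98 ± 0.483 CPM per kb in IgE+BSA+Luteolin, where its libraries overlapped those of Rc3h1 (3.89 ± 0.349), which in turn overlapped Zfp36 (3.65 ± 0.544), and Zc3h12c alone was lowest.

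Within the tristetraprolin family, the 3 paralogs summed to 85.6 ± 20.1 CPM per kb in Control, 155.1 ± 8.23 in IgE+BSA and 57.9 ± 3.92 in IgE+BSA+Luteolin (SD, n = 3). Zfp36l2 made up 77.9% ± 5.98 of that sum in Control, 57.6% ± 1.75 with antigen and 78.9% ± 1.40 with luteolin. Zfp36 itself contributed 7.54% ± 4.81, 14.2% ± 0.278 and 5.06% ± 0.536, and Zfp36l1 14.6% ± 2.04, 28.2% ± 1.49 and 16.0% ± 0.966. The make-up of the family therefore held a larger portion of the 2 paralogs that rose in the antigen libraries. The Zfp36 portion in Control was 13.1% in replicate 1, near the 14.0% to 14.5% of the antigen libraries, and 4.42% and 5.11% in replicates 2 and 3, within or near the 4.67% to 5.67% of the luteolin libraries. On the length of a single coding transcript the Zfp36 portion was 9.16%, 17.0% and 6.22% in the same order of groups. Of the 2 Regnase genes per kb, Zc3h12c took 13.7% ± 6.35 in Control (6.40% in replicate 1, 18.1% and 16.6% in replicates 2 and 3), 23.7% ± 4.55 in IgE+BSA and 12.0% ± 0.880 in IgE+BSA+Luteolin.

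**Figure D4:**
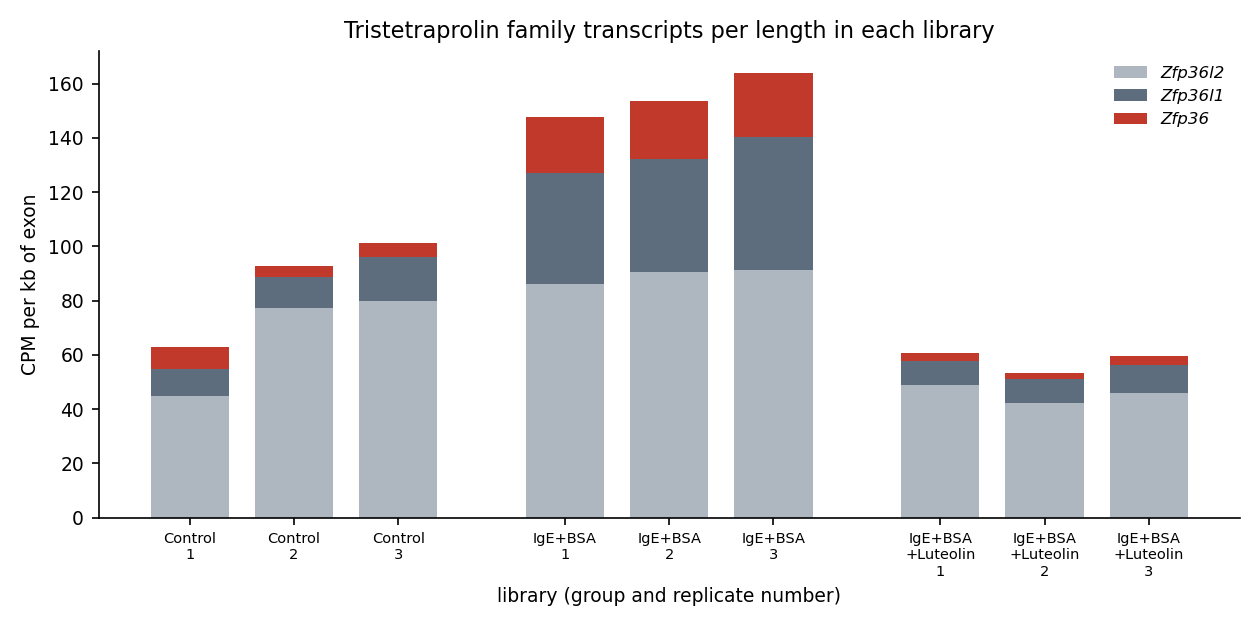
Level per kilobase of exon (CPM per kb, linear axis from 0) of Zfp36l2, Zfp36l1 and Zfp36 stacked in each of the 9 libraries. The IgE+BSA bars, with a mean sum of 155.1, stand above all others, and the bar of Control replicate 1 is close to the luteolin bars, with a larger Zfp36 portion.

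The mRNAs on which these factors are known to act were counted from a list of 22 reported targets, of which 17 were tested. In IgE+BSA against Control, 14 were higher, where 2.25% of all genes were, with a median log2 fold change of 2.64 against 0.02 over all genes. All 17 were higher both without Control replicate 1 and against replicate 1 alone, where 22.6% and 23.1% of all genes were. With luteolin, 16 of the 17 were lower than in IgE+BSA, where 21.9% of all genes were, with a median of -2.18, where the median of all genes was 0.02. Tnf stood at 14.8 CPM in Control, 758.6 in IgE+BSA and 41.9 in IgE+BSA+Luteolin as group means. It rose by 5.67 with antigen and fell by 4.18 with luteolin. Csf2, which encodes the growth factor GM-CSF, fell by 3.81, and Nfkbiz, an NF-kB cofactor and Regnase-1 target, by 3.03. Nfkbid fell by 2.79, Ccl4 by 2.60, Lif by 2.48, Rel by 2.41 and Il6 by 2.29. Il13 was lower at -2.18, Ier3 and Ccl3 at -2.11, Il4 at -2.02, Ptgs2 at -1.88, Cxcl2 at -1.65, Ccl2 at -1.43 and Il1b at -0.36. Il3 was at -0.28 (edgeR adjusted p = 0.536) with means of 2.12 and 1.75 CPM. Il10, Il2, Tnfrsf4, Icos and Il12b were below the filter. Against Control, the luteolin libraries were still higher for Tnf (1.49, edgeR adjusted p = 0.0374) and Ccl4 (1.53, adjusted p = 0.016) and lower for Ier3 (-1.05, adjusted p = 0.0115) and Nfkbiz (-0.82, adjusted p = 0.0419), where 0.285% of all genes were higher and 2.75% lower. These 2 higher and 2 lower became 13 higher and 3 lower without Control replicate 1, where 29.9% of genes were higher and 30.1% lower, and 6 higher and 4 lower against replicate 1 alone, where 11.6% were higher and 9.55% lower. Zfp36, Zfp36l1 and Zc3h12a thus rose with antigen and fell with luteolin in the same comparisons as most of these targets. The list was drawn up with earlier results of these data known, so its direction is not independent evidence.

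The balance of target and factor within a library was read from ratios of CPM. The Tnf level was 0.763, 0.844 and 0.593 times the Zfp36 level in Control, 10.7, 10.7 and 8.62 times in IgE+BSA, and 4.08, 4.34 and 3.97 times in IgE+BSA+Luteolin. The luteolin libraries lay between the other groups, since Tnf fell further than Zfp36. The ratio of Elavl1 to Zfp36 was 3.24, 5.88 and 4.94 in Control, 1.38, 1.37 and 1.16 in IgE+BSA, and 10.8, 12.7 and 8.89 in IgE+BSA+Luteolin. The message of the stabilising factor was thus most abundant relative to that of the destabilising one in the luteolin libraries. These ratios compare counts, not molecules, and say nothing of protein.

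Genes that carry out decay were counted next. Of 21 deadenylation factors tested, 2 rose with antigen, where 2.25% of all genes rose. With luteolin 11 fell and 1 rose, where 21.9% of all genes fell and 18.1% rose. These became 7 and 6 with library size alone, where 15.3% of all genes fell and 33.4% rose. With the length trend removed they became 8 and 2, where 20.1% fell and 15.2% rose. The largest changes were in the BTG and TOB genes, which encode adaptors that stimulate the CCR4-NOT nucleases. Btg2 rose by 1.72 with antigen and fell by 1.90 with luteolin (edgeR adjusted p = 1.85e-12). Tob1 fell by 1.29, Btg1 by 1.22 and Tob2 by 1.06 with luteolin. Of the nuclease subunits of that complex, Cnot7 fell by 0.54, Cnot6 fell by 0.29 and Cnot8 rose by 0.27 with luteolin (edgeR adjusted p = 0.00955 for Cnot8), Cnot6l was at -0.16 (adjusted p = 0.0568), and the scaffold Cnot1 fell by 0.19. Cnot4, the ubiquitin ligase of the complex, fell by 0.46. The scaffold and catalytic genes therefore moved far less than Zfp36 or Zc3h12a. In the same complex Cnot2, Cnot3, Cnot9, Cnot10 and Cnot11 did not pass, with values of -0.09 to 0.14.

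Of 13 relatives and regulators of the decay factors tested, 2 rose with antigen, where 2.25% of all genes rose, and 8 fell and 2 rose with luteolin, where 21.9% fell and 18.1% rose. Mapkapk2 encodes the kinase MK2, which phosphorylates tristetraprolin and holds it inactive. It rose by 1.20 with antigen and fell by 1.27 with luteolin (edgeR adjusted p = 8.11e-12), from a mean of 403.8 to 167.0 CPM. Tnfaip3, which encodes the NF-kB inhibitor A20, rose by 1.69 with antigen (edgeR adjusted p = 0.000258) and fell by 0.37 with luteolin, and stayed 1.32 above Control in the luteolin libraries (adjusted p = 0.00383). Malt1, the protease that cleaves Regnase-1 and Roquins, fell by 1.08 with luteolin, and its adaptor Bcl10 by 0.59. Arid5a, which protects mRNA stem-loops from Regnase-1, fell by 0.57. Mapkapk2 and Malt1 were therefore lower in the same comparison as Zfp36 and Zc3h12a. Zc3h12b was at -0.48 (edgeR adjusted p = 0.151), and Zfp36l3 and Zc3h12d did not pass the filter.

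The named genes of the remaining lists differed by at most 0.61 with luteolin. Of 17 decapping and 5′ decay genes, 5 rose and 3 fell with luteolin, where 18.1% of all genes rose and 21.9% fell. With library size alone 9 rose and 0 fell, where 33.4% of all genes rose and 15.3% fell. With antigen 0 passed by edgeR, DESeq2 or limma, and 0 had an unadjusted edgeR p under 0.05, where 2362 of the 11560 genes tested had one and DESeq2 called 1227. Lsm1, a subunit of the ring that binds deadenylated mRNA, rose by 0.61, Lsm7 by 0.45 and Lsm5 by 0.31, and Patl1 fell by 0.29. Of 15 exosome and 3′ decay genes, 6 rose and 1 fell with luteolin, against 18.1% and 21.9% of all genes. With library size alone 9 rose and 0 fell, against 33.4% and 15.3% of all genes. With antigen 0 passed by the same 3 tools, and 1 had an unadjusted edgeR p under 0.05. Exosc1, a cap subunit of the exosome, rose by 0.38, Exosc5 by 0.35 and Exosc2 by 0.27, and Ttc37, a scaffold of the SKI complex, fell by 0.33. With the length trend removed, 3 of the decapping genes and 4 of the exosome genes were called higher with luteolin, where 15.2% of all genes were. In the same fit 1 and 0 were called lower, where 20.1% of all genes were. Of 13 other AU-rich element and related RNA-binding proteins, 2 rose and 3 fell with luteolin, against 18.1% and 21.9% of all genes, with a median of 0.00. With library size alone 4 rose and 0 fell, against 33.4% and 15.3%. With antigen 0 of these passed by edgeR or limma and 2 by DESeq2, and 5 had an unadjusted edgeR p under 0.05. With the length trend removed, 1 was higher and 1 lower with antigen, where 296 and 178 of the 11560 genes were. In that setting 3 were higher and 5 lower with luteolin, where 15.2% and 20.1% of all genes were. Tia1 (0.26) and Cirbp (0.21) were higher, and Ptbp1 (-0.22) and Pcbp2 (-0.21) lower. Without Control replicate 1, 45.0% of all genes passed with antigen in either direction, and against replicate 1 alone 42.3%. In the same fits 9 and 8 of the 13 RNA-binding proteins, 10 and 10 of the 13 relatives and regulators, 8 and 13 of the 21 deadenylation factors and 8 and 10 of the 17 decapping genes passed. The exosome list took opposite directions, with 7 of 15 higher without replicate 1 (median 0.22) and 1 higher and 10 lower against it alone (median -0.37).

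**Figure D5:**
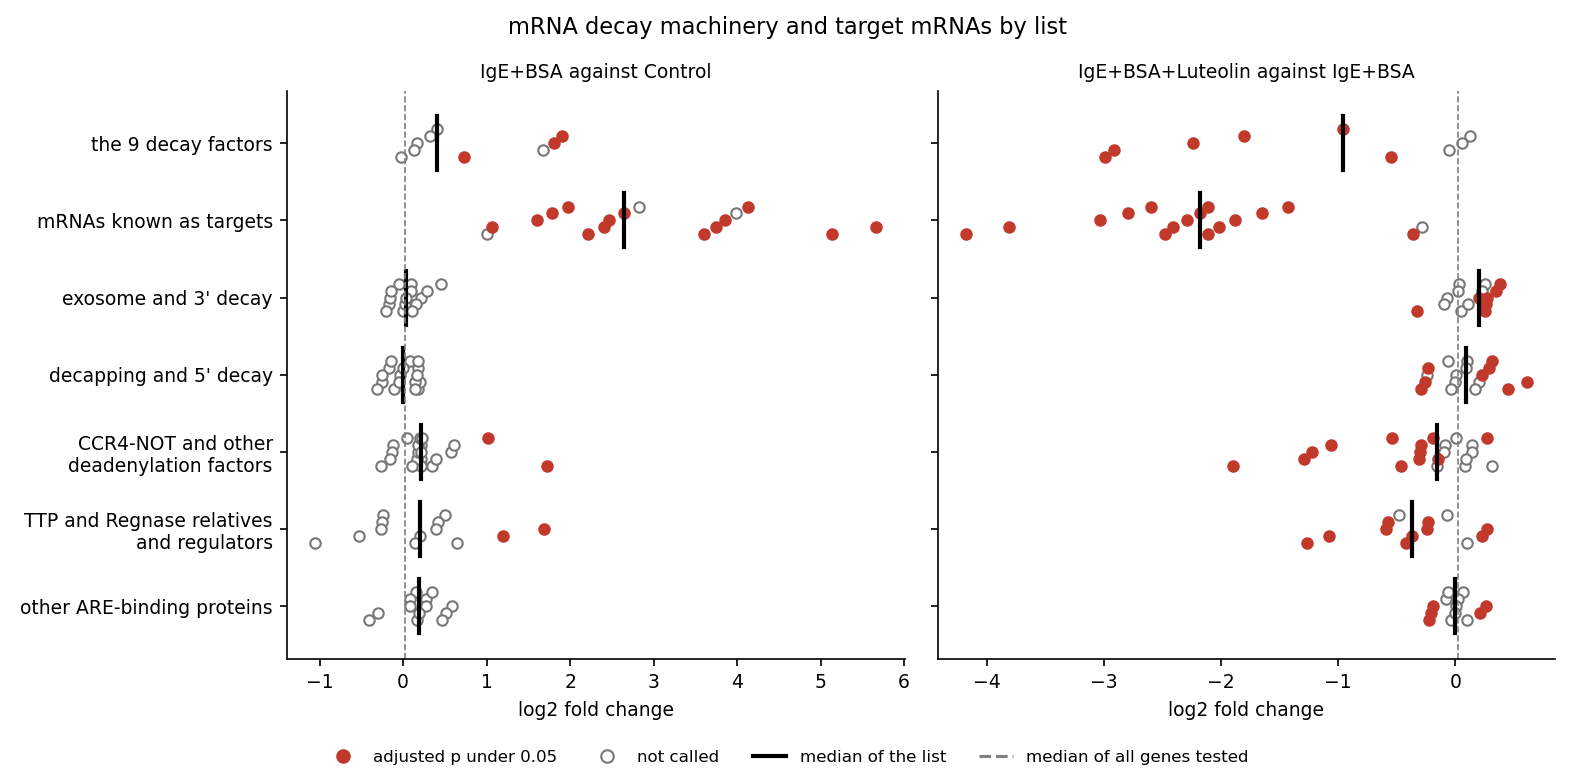
Log2 fold change of each gene tested in 6 lists and of the 9 decay factors, in IgE+BSA against Control (left) and IgE+BSA+Luteolin against IgE+BSA (right), filled where the adjusted p was under 0.05. Black bars mark list medians, 2.64 and -2.18 for the target mRNAs, and the dashed line the median of all genes tested, 0.02 on both sides.

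The nonamer printed above was also counted in all tested coding genes. Of 10744 genes with a 3′ UTR, 7.5% held at least 1. In the luteolin comparison, 32.8% of the 806 genes with a nonamer and 20.6% of those without it were lower, and 10.3% and 19.4% were higher. The genes with a nonamer also had longer 3′ UTRs, with a median of 2253 against 953.5 bases, and with the length trend removed the shares lower were 26.1% and 18.8% and the shares higher 13.5% and 16.0%. With antigen, 6.2% of genes with the nonamer and 2.01% of those without it rose. Without Control replicate 1 these shares were 23.0% and 23.8%, and against replicate 1 alone 40.7% and 22.5%. These shares are descriptions, and genes with the element differ from the others in 3′ UTR length as well. Of the decay factors called lower with luteolin, Zfp36, Zfp36l1, Zfp36l2 and Rc3h1 held 1 nonamer each and Zc3h12a and Zc3h12c held 0. Of those not called in the main fit, Rc3h2 held 1, Elavl1 8 and Khsrp 0. Whether the nonamer bears on these changes was not tested.

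The genes whose log2 CPM was most like that of Zfp36 over the 9 libraries were Trib1 (Pearson's r 0.995), Cited2 (0.994), Actg1 (0.991), Tent5c (0.991) and Socs3 (0.991). Those most like Zc3h12a were Ppp1r10 (0.996), Trim8 (0.991), Il10ra (0.991), Coq10b (0.991) and Per1 (0.990). Trib1, a pseudokinase, rose by 2.83 with antigen and fell by 4.29 with luteolin. Per1, a clock gene, rose by 0.63 and fell by 2.06. These values describe likeness across 3 separate groups of libraries, and the libraries of a group are not 9 independent points. No member of the decay factor set was eligible for these lists.

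Several of these genes share exons with a transcript on the other strand. Gm44710 overlaps Zfp36 by 125 bases and held at most 4 counts in a library, and Gm26669 overlaps Zfp36l1 by 1672 bases and held at most 6. Ccl25 overlaps Elavl1 by 204 bases and held 28 to 147 counts per library. AC132455.1 overlaps Zfp36l2 by 105 bases, Mir6244 overlaps Zc3h12c by 117 and Gm17949 overlaps Khsrp by 63, and their counts are not given here. The kit marks strand, but the strand setting of the counting is not given in the sources used here, so how such reads were divided is not known. Rc3h1, Rc3h2 and Zc3h12a overlapped no other gene.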

How the data were processed

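RNA of 9 BMMC libraries was measured by stranded mRNA sequencing. The authors filtered reads with HTStream and aligned them with STAR 2.7.0f to mm10. The deposited table holds unnormalised counts for each Ensembl gene, credited to HTSeq by its column names. The annotation release, strand setting and handling of multimapping reads are not given in the sources used here. Symbols, exon lengths and 3′ UTRs came from GENCODE M21 and promoters from RefSeq. Libraries were grouped by their labels.

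Genes were kept where the median CPM over the 9 libraries was above 1. Each pair of groups was fitted on its own 6 libraries in edgeR 4.0.16 (R 4.3.3), scaled by TMM, with a two-sided quasi-likelihood test. P-values were adjusted by Benjamini-Hochberg over the whole table and called under 0.05. The study used limma on TMM-normalised log2 CPM, and limma with a trend is among the alternatives in the closing section beside DESeq2, other scalings, filters and left-out libraries. CPM values were TMM-normalised over all 9 libraries. The script was tested on simulated counts. No replicates agreed within sampling noise (chi-square divided by its degrees of freedom at least 3.93). The labels do not say whether replicate numbers pair the samples, and the main fits used no pairing. Same-numbered deviations correlated between -0.248 and 0.297 and different-numbered ones between -0.297 and 0.277. With 3 libraries a group these values cannot decide the question.

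Members and lists were chosen with earlier results of these data known. Named beside the members are all tested targets, up to 4 genes of each other list with the largest called luteolin change, the 5 genes most like Zfp36 and Zc3h12a, and Kit and Fcer1a. The genes of the Cnot series, Tnfaip3, the untested or uncalled relatives (Zc3h12b, Zc3h12d, Zfp36l3), the antisense partners and the other cell type markers named were chosen after their values were seen, the markers from fixed lists. 1 macrophage marker of the list is not reported here.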

Additional observations from a re-analysis of the deposited data

How the results depend on the processing

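The IgE+BSA+Luteolin against IgE+BSA decreases of Zfp36, Zfp36l1, Zfp36l2, Zc3h12a and Zc3h12c kept their direction and call under every alternative run. The number of the 9 factors called there ran from 6 to 7 with 1 library left out. Against Control, with 1 library left out, the number called ran from 1 to 5 for IgE+BSA (3 with all libraries, 1 without any single IgE+BSA library) and from 0 to 9 for IgE+BSA+Luteolin (1 with all libraries). Against Control replicate 1 alone, chosen after seeing the data, 7 and 4 were called. For IgE+BSA+Luteolin against Control, DESeq2 called 4, no filter 3 and a fit over all 9 libraries 3. These settings called 1379 of 11560, 811 of 22233 and 1251 of 11560 genes, where the main fit called 351 of 11560. The cause was not tested.

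Among the 9 factors, some signs turned. For IgE+BSA against Control, Rc3h2 was at 0.02 with limma, 0.04 with no filter, 0.02 with the replicate block, 0.10 and 0.12 without Control replicate 2 or 3, 0.002 and 0.04 without IgE+BSA replicate 1 or 2, and 0.56 against Control replicate 1 alone. Rc3h1 was at -0.08 without Control replicate 1, Elavl1 at -0.01 and Khsrp at -0.05 with library size alone, and Khsrp at -0.03 against Control replicate 1 alone. With 1 library left out Rc3h1 ran from -0.08 to 0.59 and Rc3h2 from -0.30 to 0.12. For IgE+BSA+Luteolin against IgE+BSA, Rc3h2 was at 0.06 with library size alone, 0.02 with upper-quartile factors, 0.24 with the length trend removed, 0.03 without IgE+BSA replicate 3 and 0.003 without IgE+BSA+Luteolin replicate 1, with a lowest value of -0.16 when 1 library was left out. For IgE+BSA+Luteolin against Control, Zfp36l2 (0.03), Zc3h12c (0.01), Rc3h1 (0.89) and Rc3h2 (0.53) turned against Control replicate 1 alone, Rc3h1 (0.04) and Rc3h2 (0.05) without Control replicate 2, and Rc3h2 without Control replicate 3 (0.06) and with the length trend removed (0.14). The lowest values with 1 library left out were -0.59 for Rc3h1 and -0.32 for Rc3h2.

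Over all genes, IgE+BSA against Control called 378 genes, against 1227 by DESeq2, 618 with no filter, 1105 with all 9 libraries, 4892 against Control replicate 1 alone and 90 to 5207 with 1 library left out. IgE+BSA+Luteolin against IgE+BSA called 4624, against 1093 with all 9 libraries. Its split of 2097 higher and 2527 lower became 3857 against 1767 when only library size was used and 3267 against 2019 under upper-quartile scaling. The split of 260 higher and 118 lower in IgE+BSA against Control became 173 against 291 and 199 against 181 under the same scalings. IgE+BSA+Luteolin against Control called 351, against 1379 by DESeq2, 811 with no filter, 1251 with all 9 libraries, 655 with the length trend removed, 2447 against Control replicate 1 alone and 2 to 6931 with 1 library left out. With replicate number as a block, 2, 7 and 1 factors and 144, 5582 and 212 genes were called in the 3 comparisons. Zc3h12a then lost its call in IgE+BSA against Control (edgeR adjusted p = 0.0626), while Elavl1 passed in IgE+BSA+Luteolin against IgE+BSA (0.13, edgeR adjusted p = 0.0328). Whether the numbers pair the libraries is not known.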
